A study of Mus musculus with 24 samples.

Results

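The genes that lie beside Mb21d1 on mouse chromosome 9 were examined in fibroblasts that lack this gene and in wild-type fibroblasts. Mb21d1 encodes cGAS, the sensor that binds DNA in the cytosol. The neighbours were taken as the genes of the deposited gene table whose start lay between 73430000 and 83440000 of chromosome 9 (mm10), which is 5 Mb to either side of Mb21d1. Mb21d1 itself was left out, and a mean level of at least 1 CPM (the count of a gene scaled to the size of its library) over the 6 genotype and day groups was required. Of 140 genes in the interval, 42 met this level and are the members described here, against 17233 genes tested in the whole table. The members comprised 34 protein-coding genes, 5 pseudogenes and 3 other RNA genes in the GENCODE annotation. All 42 passed the filter on low counts used for the test, and 24 of them lay before Mb21d1 and 18 after it in chromosome order.

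The cells were primary mouse embryonic fibroblasts, which are cells grown out of embryos, of the strain given as C57B1/6 and either cGAS KO or WT. Both genotypes were passaged under 20% oxygen, and RNA was isolated on day 33 (passage 11), day 36 (passage 12) and day 42 (passage 14). The sources used here do not give how the KO allele was made or how many embryos each culture came from. The 4 numbered samples that the labels list for each group differed by less than the sampling noise and were counted as 1 sample, leaving 3 KO and 3 WT libraries with 1 per day.

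Depth was 25651250 to 36447639 counts in the KO libraries and 35025184 to 48717439 in the WT libraries. The days served as the replicates, and since the labels do not call them separate cultures, a p-value here reflects only how far these libraries spread, and that spread may be technical. Xist, the RNA that coats the inactive X chromosome, stood at 465 to 640 CPM in the KO libraries and at 0.057 to 0.363 CPM in the WT libraries. The Y-linked gene Uty stood at 2.69 to 2.91 CPM in KO and at 29.9 to 32.0 CPM in WT. Of the other Y-linked genes, Ddx3y stood at 38.3 to 45.0 CPM in KO and 122 to 166 CPM in WT. Kdm5d stood at 6.76 to 7.32 CPM in KO and 33.5 to 43.7 CPM in WT, and Eif2s3y at 6.23 to 6.97 CPM and 53.7 to 68.9 CPM. Whether the KO cultures held some male cells was not tested. Genotype and sex cannot be told apart in any comparison below. The sum of 10 fibroblast markers was 50649.6 to 60786 CPM in KO and 55033 to 59371 CPM in WT. The sum of 10 macrophage markers, all 10 of them measured, was 5.04 to 60.6 CPM in KO and 8.71 to 137 CPM in WT and was highest on day 33 in both. The sum of 7 endothelial markers was 6.87 to 12.0 CPM in KO and 13.4 to 15.1 CPM in WT, with Cldn5 at 0 in all 6 libraries and 4 of the 7 below 1 CPM in every KO library. The sum of 7 epithelial markers was 19.9 to 24.2 CPM in KO and 19.6 to 39.8 CPM in WT. The part of sex and of these cell types in the differences below was not tested.

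As background, cGAS makes the messenger cGAMP when it binds DNA, and cGAMP activates STING and through it interferon and inflammatory genes. A targeted allele is inherited together with the DNA next to it, and a gene can share regulatory DNA with its neighbours, so the genes linked to a targeted locus are commonly examined in knockout cells. The interval around Mb21d1 is a mixed stretch of chromosome: it holds genes of glutathione metabolism, collagen XII, motor proteins of the myosin family, a serotonin receptor and several genes used in all cells.

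The sequences next to the starts of 4 genes are shown as a description. They are Mb21d1 itself, Mto1, whose start faces that of Mb21d1, Fam214a, a member called lower in KO, and Htr1b, the member just outside the threshold. No sequence of this kind was available for the called members Gsta4 and Col12a1. Each sequence shown is the stretch of 250 bases before the start of the gene in RefSeq (GRCm38.p6). It is read 5′ to 3′ on the gene's strand, with capitals on CCAAT or its complement ATTGG. The Mb21d1 window is chr9:78443238-78443487 on the minus strand, the Mto1 window chr9:78447960-78448209 on the plus strand, the Fam214a window chr9:74952630-74952879 on the plus strand and the Htr1b window chr9:81633833-81634082 on the minus strand.
Mb21d1: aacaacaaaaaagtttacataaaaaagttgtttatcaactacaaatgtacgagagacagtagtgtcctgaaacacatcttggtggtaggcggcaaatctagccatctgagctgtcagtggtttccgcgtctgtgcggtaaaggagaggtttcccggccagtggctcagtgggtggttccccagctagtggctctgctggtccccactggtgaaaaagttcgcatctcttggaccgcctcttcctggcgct
Mto1: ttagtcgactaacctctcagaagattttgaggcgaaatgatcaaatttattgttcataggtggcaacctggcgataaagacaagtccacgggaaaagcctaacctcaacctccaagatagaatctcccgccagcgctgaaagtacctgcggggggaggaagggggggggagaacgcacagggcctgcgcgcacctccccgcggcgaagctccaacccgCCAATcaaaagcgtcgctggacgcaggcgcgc
Fam214a: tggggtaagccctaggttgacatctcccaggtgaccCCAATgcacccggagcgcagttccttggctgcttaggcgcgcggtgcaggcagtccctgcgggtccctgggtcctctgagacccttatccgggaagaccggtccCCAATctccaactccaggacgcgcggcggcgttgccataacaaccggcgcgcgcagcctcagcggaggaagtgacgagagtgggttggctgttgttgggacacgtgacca
Htr1b: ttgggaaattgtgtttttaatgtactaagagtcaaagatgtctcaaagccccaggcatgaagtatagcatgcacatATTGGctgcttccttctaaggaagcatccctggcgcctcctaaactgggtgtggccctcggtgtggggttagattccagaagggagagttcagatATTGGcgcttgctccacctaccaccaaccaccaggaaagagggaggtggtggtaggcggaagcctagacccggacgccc

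Letters of 4 motifs were searched on both strands in 40 such windows, which belong to 29 members and Mb21d1 (a gene can have several starts). CCAAT was found in 16 of the 40 windows and in 33.85% of 32851 windows of the same length over all genes. TATAAA was found in 4 of the 40 and in 12.37% of all windows, TGACNNNGC (the core of the antioxidant response element) in 6 of the 40 and in 10.16%, and TGANTCA (the AP-1 motif, which can share letters with TGACNNNGC) in 2 of the 40 and in 6.75%. The Mb21d1 window held none of the 4 motifs, the Mto1 window held 1 CCAAT, and the windows of Fam214a and Htr1b held 2 CCAAT stretches each and no other of these motifs. These matches describe the letters only.

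The targeted gene was examined first as a check of the labels. Mb21d1 (chr9:78430526-78443237, minus strand) had 8, 0 and 5 counts in the KO libraries of days 33, 36 and 42, against 222, 178 and 168 counts in the WT libraries. The groups were far apart on every day, and the labels of all 6 libraries fit these counts. The log2 fold change was −5.11 ± 0.62 (SE) with an edgeR adjusted p of 0.0102, or 0.0227 with the days as blocks. Of the 3 deposited transcript models of Mb21d1, ENSMUST00000070742 carried most of the WT counts, with 0 counts over the KO libraries and 373.4 over the WT libraries. The other two kept a few counts in KO: ENSMUST00000034898 had 8.1 over the KO libraries and 74.9 over the WT libraries, and ENSMUST00000127190 had 5.6 over the KO libraries and 140.1 over the WT libraries. The call of Mb21d1 did not pass the threshold when the day 42 KO library was left out (adjusted p = 0.0592), although its log2 fold change was then −5.10.

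KO was then compared with WT over all members, the question being whether genes linked to the targeted locus differed between the genotypes. At an edgeR adjusted p below 0.05, 4 of the 42 members (9.52%) were lower in KO, 0 were higher and 38 did not pass the test. Before adjustment 5 members were higher at a p below 0.05, and DESeq2 called 2 higher. The 4 lower members were Gsta4, which encodes a glutathione transferase, Col12a1, which encodes the alpha chain of collagen XII, Fam214a, and D430036J16Rik, an RNA antisense to Htr1b. D430036J16Rik reached the mean of 1 CPM only through WT, with 0.633 to 0.895 CPM in the KO libraries, so its lower call carries that selection. The background was close to this share: 8.72% of all 17233 genes tested were called, 4.07% higher and 4.65% lower in KO, and among the 14702 whose mean reached 1 CPM the share was 8.95%. A share so near the background is no result about the members as a group. Their median log2 fold change was −0.05, against −0.01 over all genes tested and −0.001 over those whose mean reached 1 CPM.

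The size of the differences was likewise near that of other genes. The median absolute log2 fold change was 0.201 over the members and 0.218 over those whose mean reached 1 CPM. Of the members, 31 (73.8%) lay within 0.5 of 0 on the log2 scale, against 78.4% of those genes. Before adjustment, p lay below 0.05 in 12 members (28.6%) and in 27.3% of all genes tested. The 3 KO and 3 WT libraries did not overlap for 17 members (40.5%), of which 10 were lower and 7 higher in KO, against 34.3% of all genes tested. With the days as blocks, 2 members were past the threshold, Gsta4 and Fam214a, and 7.76% of all genes tested were called. Without the day 36 KO library, the day 42 KO library or the day 33 WT library, 1 member was called in each fit, Gsta4, beside 0.136%, 0.387% and 1.45% of all genes.

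**Figure D1:**
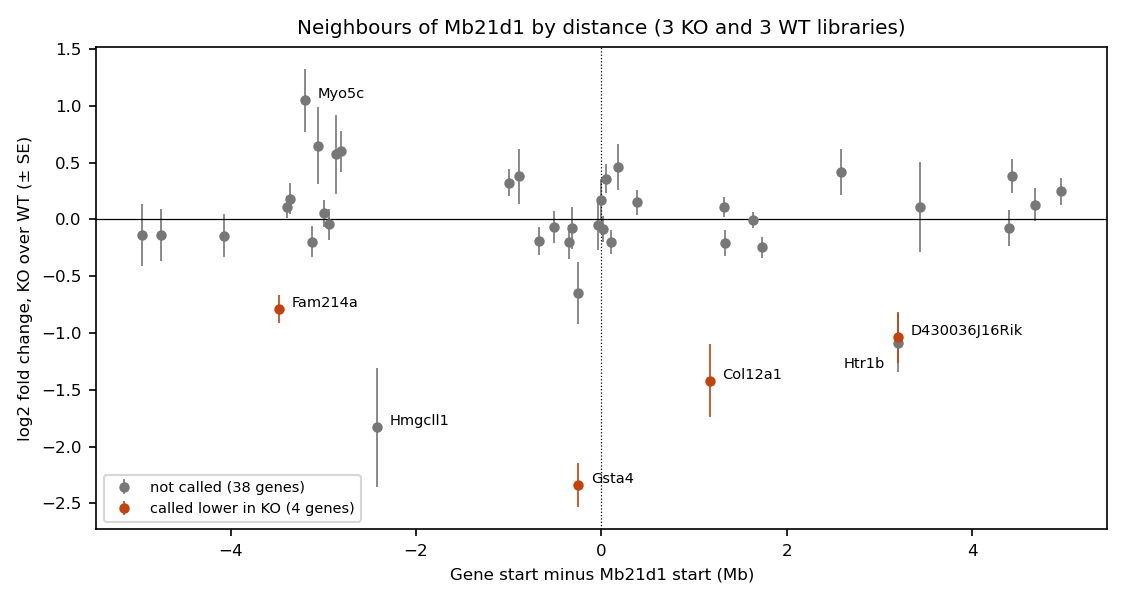
Log2 fold change of KO over WT (vertical axis, bars are SE) for the 42 members by distance of the gene start from the Mb21d1 start in Mb (horizontal axis), with the 4 members called lower in KO in red and the other 38 in grey. Gsta4, at −2.34, lies beside C920006O11Rik, the nearest member by start, which is at −0.65 and not called. The members farther from 0 stand on both sides of Mb21d1.

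The members were then divided by distance of their start from that of Mb21d1, start meaning the lower coordinate whatever the strand. Within 1 Mb, 1 of 15 members was called (6.67%), between 1 and 2.5 Mb 1 of 6 (16.7%), and between 2.5 and 5 Mb 2 of 21 (9.52%). The median absolute log2 fold changes in these classes were 0.200, 0.227 and 0.198. Across the 42 members, the Spearman correlation of the absolute log2 fold change with distance was −0.009, a description over genes that share the same 6 libraries. The 10 Mb of chromosome 9 before the interval had 7 of 77 genes called (9.09%), the 10 Mb after it 4 of 46 (8.70%), and the rest of the chromosome, these windows included, 61 of 716 (8.52%). Calls there went both ways, with 4 of the 7, 3 of the 4 and 30 of the 61 higher in KO. The difference in direction between the members and these genes was not tested.

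**Figure D2:**
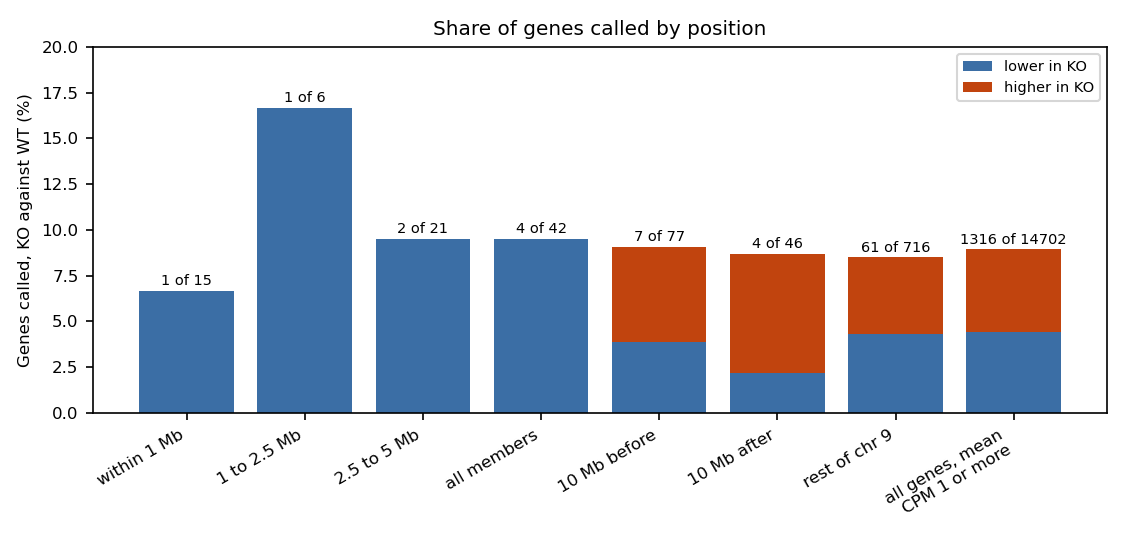
Share of genes called between KO and WT in percent (vertical axis, from 0) in 3 distance classes of members, all members, the 10 Mb windows before and after the interval, the rest of chromosome 9 and all genes whose mean reached 1 CPM; blue is the share lower and red the share higher in KO. The bar of all members, at 9.52%, stands near that of all genes, at 8.95%, and holds no gene higher in KO; the tallest bar rests on 1 of 6 genes.

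The genes immediately beside Mb21d1 showed small differences. Gm8093, a transcribed pseudogene that starts 3.0 kb before Mb21d1 and overlaps its exons by 201 bases on the opposite strand, had 1.32, 1.57 and 1.44 CPM in KO, against 1.366, 1.260 and 1.203 CPM in WT. Mto1, which encodes an enzyme that modifies mitochondrial tRNA, had 11.5, 11.6 and 13.3 CPM in KO, against 14.0, 12.3 and 12.5 CPM in WT. Its lower coordinate, 78448208 on the plus strand, lies 17.7 kb after that of Mb21d1. This distance is from the 3′ end of Mb21d1, whose 5′ end, at 78443237 on the minus strand, lies nearer to Mto1. Ddx43, an RNA helicase gene that starts 34.7 kb before Mb21d1, had 2.87, 3.51 and 2.38 CPM in KO, against 3.201, 3.391 and 2.435 CPM in WT. The KO and WT values of all 3 genes overlapped.

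The log2 fold changes of these 3 genes were 0.17 ± 0.18 for Gm8093, −0.09 ± 0.11 for Mto1 and −0.05 ± 0.22 for Ddx43 (SE), and their edgeR adjusted p-values were 0.592, 0.666 and 0.914. Of the other genes close by, the oocyte gene Ooep and the pluripotency gene Dppa5a were below the level required of a member, with 0 counts over the KO libraries for both, and over the WT libraries 4 for Ooep and 0 for Dppa5a.

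Farther out on the side after Mb21d1, Eef1a1, the gene of a translation elongation factor, had 10.6, 12.8 and 12.0 CPM in KO, against 8.90, 8.46 and 10.3 CPM in WT. The groups did not overlap, and the edgeR adjusted p was 0.136. Its value is uncertain, because 40.4% of the 50-base stretches of its transcripts occur in other genes, to which reads could have been assigned. The same holds for the pseudogene Gm8116, of whose stretches 91.3% occur elsewhere (9.51, 9.81 and 10.4 CPM in KO, against 9.50, 8.94 and 8.39 CPM in WT).

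Slc17a5, which encodes the lysosomal sialic acid carrier sialin, had 14.9, 13.8 and 14.1 CPM in KO, against 15.7, 15.3 and 18.2 CPM in WT. All KO values lay below all WT values, by a small margin, with a log2 fold change of −0.20 ± 0.11 and an edgeR adjusted p of 0.279. Cd109, which encodes a surface protein that binds TGF-beta receptors, had 297, 430 and 448 CPM in KO, against 296, 229 and 328 CPM in WT. The groups overlapped through the day 33 libraries, which were nearly equal, and the edgeR adjusted p was 0.203 for a log2 fold change of 0.46 ± 0.20.

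On the side before Mb21d1, Fbxo9, an F-box gene of the ubiquitin system, had 20.4 to 22.3 CPM in KO and 20.8 to 30.045 CPM in WT. The kinase gene Ick, which acts in cilia, had 26.3 to 29.6 CPM in KO and 23.7 to 38.6 CPM in WT. Both overlapped between the genotypes. The RNA gene C920006O11Rik had 1.02, 1.19 and 1.12 CPM in KO, against 1.45, 1.38 and 2.41 CPM in WT, without overlap, with a log2 fold change of −0.65 ± 0.27 and an edgeR adjusted p of 0.188. Without the day 42 WT library the log2 fold change of C920006O11Rik was −0.35.

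**Figure D3:**
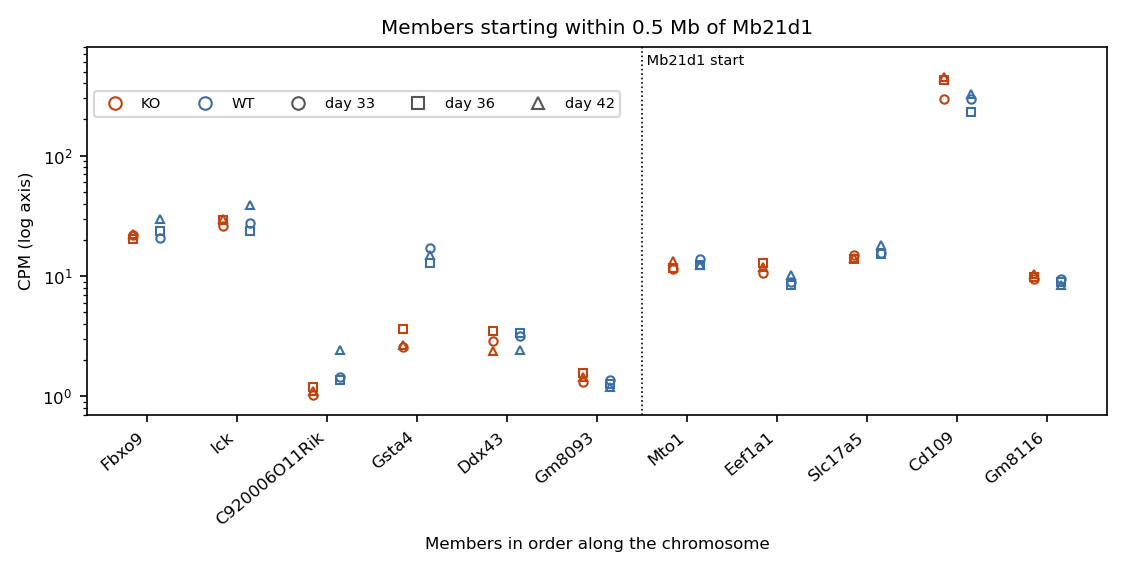
CPM in each library (log axis) of the 11 members whose start lies within 0.5 Mb of the Mb21d1 start, in order along the chromosome, with KO in red left of WT in blue and a symbol per day. Gsta4 shows the widest gap between the genotypes of these 11; Ddx43, Gm8093 and Mto1, on either side of Mb21d1, overlap.

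Among the glutathione genes of the interval, Gsta4 was lower in KO and Gclc was not called. Gsta4 (chr9:78182774-78209349, plus strand) encodes a glutathione transferase known for clearing hydroxynonenal, a product of lipid oxidation. It had 2.57, 3.66 and 2.66 CPM in KO, against 17.2, 12.8 and 14.9 CPM in WT. The highest KO library stood far below the lowest WT library. The means were 2.96 ± 0.60 CPM in KO and 14.97 ± 2.17 CPM in WT (SD, n = 3 each), which is 19.8% of the WT level, and the log2 fold change was −2.34 ± 0.19 (SE) with an edgeR adjusted p of 0.00643, or 0.0156 with the days as blocks.

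Gsta4 was past the threshold without each single library in turn, at adjusted p-values of 0.0113 to 0.0446. It was the 1 member at least 2-fold apart in 1 direction on all 3 days, which is 2.38% of members against 3.35% of genes whose mean reached 1 CPM. None of its 50-base stretches occurs in another gene, and it has 1 transcript model, with 288.9 counts over the KO libraries and 1885.1 over the WT libraries. In bulk samples, fewer cells of a type and less RNA per cell cannot be told apart.

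Gclc, which encodes the catalytic subunit of the enzyme that begins glutathione synthesis, starts 0.676 Mb before Mb21d1. It had 33.4, 32.6 and 30.8 CPM in KO, against 33.6, 43.1 and 33.9 CPM in WT. The groups did not overlap but nearly met on day 33, and the log2 fold change was −0.19 ± 0.12 with an edgeR adjusted p of 0.359. The relatives of Gsta4 in the interval, Gsta1 and Gsta2, were below the level of a member, with 7 counts each over the KO libraries and 12 each over the WT libraries.

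Glutathione genes elsewhere in the genome were read beside Gsta4. Of 37 such genes, 34 were tested, 2 rose and 5 fell in KO, 27 did not pass the test, and the median log2 fold change was −0.28. The lower ones were the transferase genes Gstm2 (−1.49 ± 0.29, edgeR adjusted p = 0.0321), Gsto2 (−2.10 ± 0.39, adjusted p = 0.0282), Gstk1 (−1.69 ± 0.34, adjusted p = 0.0345) and Mgst1 (−1.28 ± 0.29, adjusted p = 0.0478), and Ptges, a prostaglandin E synthase gene (−0.81 ± 0.18, adjusted p = 0.0428). The higher ones were Ggct, which encodes an enzyme of glutathione breakdown (1.71 ± 0.23, adjusted p = 0.0130), and Gstcd (0.56 ± 0.11, adjusted p = 0.0302). With the days as blocks, Ptges (adjusted p = 0.0789) and Gstcd (adjusted p = 0.0521) were no longer called. The share called, 20.6%, was above the 8.72% of all genes, but the list was written with earlier results of these data known, so that its count stands as a description. Without the day 36 KO, day 42 KO or day 33 WT library edgeR called 0 of these genes (15, 10 and 11 had an unadjusted p below 0.05), without the day 36 WT library 2, and DESeq2 on all libraries called 10.

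Among genes of the matrix and membranes, Col12a1 was lower in KO. It encodes the chain of collagen XII, which attaches to the surface of collagen fibrils, and per length it had the highest level of all members, a mean of 58.2 RPKM over the KO libraries and 149.5 RPKM over the WT libraries in the authors' values. Col12a1 (chr9:79598991-79718831, minus strand), 1.168 Mb after Mb21d1, had 2380, 1223 and 1327 CPM in KO, against 3779, 3678 and 5755 CPM in WT. The groups did not overlap, and the difference on the log2 scale was −0.67 on day 33, −1.59 on day 36 and −2.12 on day 42, so that the libraries were closest on day 33. The means were 1643 ± 640 CPM in KO and 4404 ± 1171 CPM in WT (SD, n = 3 each).

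The log2 fold change of Col12a1 was −1.42 ± 0.32 (SE) with an edgeR adjusted p of 0.0457, and with the days as blocks the adjusted p was 0.0631. The call was also lost without any single library other than the day 33 KO library (adjusted p = 0.0183). Most counts of Col12a1 fell to the long transcript model ENSMUST00000071750, with 148584 counts over the KO libraries and 491355 over the WT libraries, and the shorter ENSMUST00000121227 had 16300 in KO and 44897 in WT. Of the 10 fibroblast markers, 2 had all KO libraries below all WT libraries and 0 the reverse. These 2 were Dcn, which encodes the matrix proteoglycan decorin, at 7.59 to 18.3 CPM in KO and 23.7 to 169.9 CPM in WT, and Thy1, a surface marker, at 432 to 644 CPM in KO and 762 to 1467 CPM in WT. The other 8 overlapped, but among them Col3a1, Pdgfra and Lum were lower in KO on each day. Pdgfra had 14.6 to 45.4 CPM in KO and 44.8 to 102 CPM in WT, and Lum 0.224 to 2.48 CPM and 0.985 to 21.3 CPM. The rest went both ways over the days, among them Fn1, the fibronectin gene, at 29733 to 34249 CPM in KO and 28396 to 33221 CPM in WT. The part of these markers in the Col12a1 result was not tested.

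Of 19 other fibril and fibril-associated collagen genes, all tested, 0 rose and 2 fell in KO and 17 did not pass the test, with a median log2 fold change of −0.45. The lower ones were Col24a1 (−3.56 ± 0.59, edgeR adjusted p = 0.0207) and Col16a1 (−0.58 ± 0.10, adjusted p = 0.0263). The share called, 10.53%, was near the 8.72% of all genes tested and is no result about the list. Before adjustment 2 were higher at a p below 0.05, and DESeq2 called 1 higher. Without the day 36 KO, day 42 KO or day 33 WT library edgeR called 0 collagens (7, 8 and 5 had an unadjusted p below 0.05), and without the day 36 WT library 1. With the days as blocks Col27a1 was also called (−0.95 ± 0.28, adjusted p = 0.0893 without blocks and 0.0295 with them). Col1a1, a main chain of collagen I, had a log2 fold change of −0.16 ± 0.20 and an adjusted p of 0.644. The other membrane members were Tmem30a, a subunit gene of lipid flippases that had 247, 213 and 197 CPM in KO and 260, 270 and 229 CPM in WT, and Cd109 and Slc17a5 above. The Tmem30a groups overlapped, at a log2 fold change of −0.21 ± 0.12 and an edgeR adjusted p of 0.312.

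Among members of signalling, Htr1b was the nearest to the threshold. It encodes a serotonin receptor of the 1B type, and it had 58.5, 46.3 and 61.9 CPM in KO, against 131, 147 and 75.8 CPM in WT. All KO values lay below all WT values, with the WT library of day 42 much nearer to KO than the other two. The log2 fold change was −1.09 ± 0.26 (SE), and the edgeR adjusted p of 0.0515 missed the threshold. Without the day 42 WT library it was 0.0136 for a log2 fold change of −1.32. With each other library left out in turn Htr1b was not called (edgeR adjusted p = 0.0819 to 0.183).

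D430036J16Rik, which lies antisense to Htr1b and shares 852 exon bases with it, had 0.688, 0.895 and 0.633 CPM in KO, against 1.71, 1.44 and 1.38 CPM in WT. The groups did not overlap in these gene values, but they overlapped in the transcript model with the most counts. That model, ENSMUST00000181893, had 0.044, 0 and 0.758 CPM in KO, against 0.371, 0.207 and 1.32 CPM in WT. In the day 42 KO library it had 32.0 counts, more than the 25 of the gene, so gene and transcript values did not match. The 5 transcript models of D430036J16Rik did not all go the same way. Over the KO and WT libraries, ENSMUST00000181893 had 33.7 and 86.5 counts, ENSMUST00000180663 12.9 and 22.3, and ENSMUST00000183536 0 and 3.9. ENSMUST00000181447 had 12.2 in KO and 9.5 in WT, and ENSMUST00000183781 7.6 in KO and 2.9 in WT. These counts are not scaled to depth, which was higher in WT on days 33 and 36. Scaled to CPM, ENSMUST00000180663 was near equal, at 0.184, 0.193 and 0 in KO and 0.180, 0.221 and 0 in WT. The counts of ENSMUST00000183536 all came from the day 42 WT library. The gene D430036J16Rik was called from the gene values. Its log2 fold change was −1.04 ± 0.22 with an edgeR adjusted p of 0.0404, and 0.0616 with the days as blocks, and the call was lost without any single library other than the day 42 WT library (adjusted p = 0.0471). The kit keeps strand, but the strand setting of the counting is not given in the sources used here, so reads of Htr1b and of D430036J16Rik cannot be told apart with certainty. Both had lower values in KO, and Htr1b carried far more counts, with 5641 over the KO libraries and 15232 over the WT libraries, while D430036J16Rik had 72 in KO and 191 in WT.

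Mapk6, which encodes the kinase ERK3, had 280, 439 and 380 CPM in KO, against 250, 320 and 131 CPM in WT. The groups overlapped, and the day 42 WT library was the lowest, at a log2 fold change of 0.65 ± 0.34 and an edgeR adjusted p of 0.270. The remaining signalling members, Arpp19 (an inhibitor of phosphatase 2A in mitosis), Gnb5 (a G protein beta subunit), Ick and Irak1bp1 (a binding partner of the kinase IRAK1), had log2 fold changes of −0.20 to 0.11 and were not called.

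**Figure D4:**
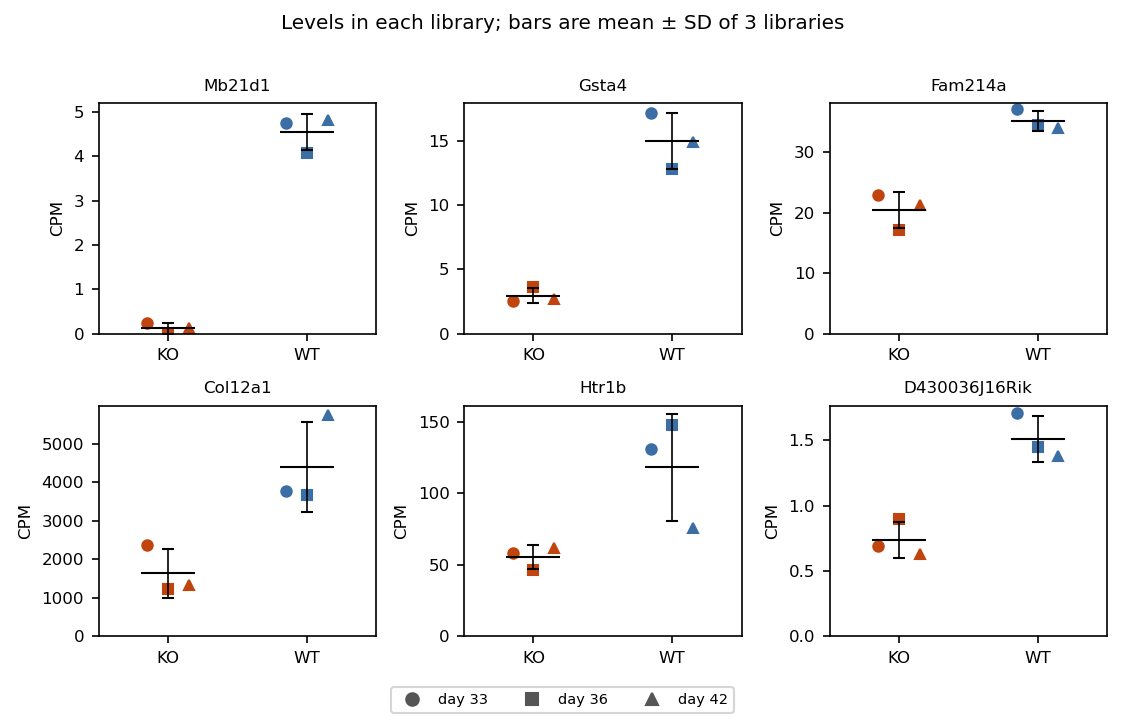
CPM (vertical axes, from 0) of Mb21d1, the 4 members called lower in KO and Htr1b in each library, KO left of WT, a symbol per day, with bars for mean ± SD of the 3 libraries of a genotype. KO and WT do not overlap in any of the 6 genes; the Htr1b WT library of day 42, at 75.8 CPM, lies nearer to the KO libraries than the other WT libraries do, and the Col12a1 KO library of day 33, at 2380 CPM, nearer to WT than the other KO libraries do.

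Fam214a (chr9:74952884-75032468, plus strand), 3.478 Mb before Mb21d1, was lower in KO by less than 2-fold but with little spread. It had 22.8, 17.1 and 21.3 CPM in KO, against 37.1, 34.5 and 34.1 CPM in WT. The groups stood well apart, with means of 20.4 ± 2.98 CPM in KO and 35.2 ± 1.66 CPM in WT (SD, n = 3 each). The log2 fold change was −0.79 ± 0.12 (SE) with an edgeR adjusted p of 0.0183, or 0.0255 with the days as blocks. The call was lost without the day 36 KO library, the day 42 KO library or the day 33 WT library. Both transcript models of Fam214a were lower in KO, with 1021 counts over the KO libraries and 2164 over the WT libraries for ENSMUST00000081746, and 1077 in KO and 2344 in WT for ENSMUST00000170846. The next members along the chromosome, Arpp19 and Myo5a, had 138 to 164 CPM in KO and 127 to 146 CPM in WT, and 285 to 327 CPM in KO and 222 to 299 CPM in WT, and were not called.

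The cytoskeletal members were 3 myosins, which carry cargo along actin, and the tropomodulins Tmod2 and Tmod3, which cap actin filaments. edgeR called 0 of the 5 (2 had an unadjusted p below 0.05, and DESeq2 called 1), and their log2 fold changes ran from −0.24 to 1.05. Myo5c was at the upper end, with 3.41, 6.64 and 6.06 CPM in KO, against 2.84, 2.22 and 2.72 CPM in WT. The groups did not overlap, the day 33 KO library lay nearest to WT, and the edgeR adjusted p was 0.0668 for a log2 fold change of 1.05 ± 0.28. Without the day 33 KO library Myo5c was called, at 1.29 and an adjusted p of 0.0175. With each other library left out in turn it was not called (edgeR adjusted p = 0.0953 to 0.216). Tmod2 had 11.2, 10.7 and 16.3 CPM in KO, against 5.95, 6.53 and 13.4 CPM in WT. It was higher in KO on each day, but the day 42 WT library exceeded 2 of the KO libraries, and the edgeR adjusted p was 0.346 for a log2 fold change of 0.57 ± 0.35. Without the day 42 WT library Tmod2 was called, at 1.04 and an adjusted p of 0.0454. With each other library left out in turn it was not called (edgeR adjusted p = 0.344 to 0.668). Myo6 had 25.7 to 30.7 CPM in KO and 32.7 to 33.6 CPM in WT, without overlap, at a log2 fold change of −0.24 ± 0.09 and an edgeR adjusted p of 0.151.

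Among the metabolic members, Hmgcll1, related to the lyase that forms ketone bodies, had 0.628, 0.559 and 0.431 CPM in KO, against 2.07, 0.733 and 2.98 CPM in WT. Hmgcll1 reached the mean of 1 CPM only through the WT libraries of days 33 and 42. The WT library of day 36 lay close to the KO libraries, and the log2 fold change of −1.83 ± 0.52 had an edgeR adjusted p of 0.0811. Without the day 36 WT library Hmgcll1 was called, at −2.22 and an adjusted p of 0.0315. With each other library left out in turn it was not called (edgeR adjusted p = 0.12 to 0.242). The fatty acid elongase gene Elovl5, Cox7a2, which encodes a subunit of cytochrome c oxidase, and Mto1 had log2 fold changes of −0.09 to 0.11 and were not called.

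The 7 members of the nucleus, RNA and protein turnover (Ddx43, Eef1a1, Fbxo9, the transcription elongation gene Leo1, the SUMO protease gene Senp6, the bromodomain gene Phip and the nucleosome-binding gene Hmgn3) had log2 fold changes of −0.20 to 0.38. edgeR and DESeq2 called 0 of them, and 2 had an unadjusted p below 0.05. Senp6 had the smallest SE of them, with 121 to 125 CPM in KO and 119 to 130 CPM in WT and a log2 fold change of −0.01 ± 0.07. Phip had 80.1, 85.0 and 114 CPM in KO, against 70.5, 67.0 and 77.0 CPM in WT, without overlap, at a log2 fold change of 0.38 ± 0.15 and an edgeR adjusted p of 0.160.

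Of the remaining coding members, Lysmd2, which encodes a protein with a LysM domain, had 6.97, 7.98 and 7.68 CPM in KO, against 4.23, 4.51 and 6.22 CPM in WT. The groups did not overlap, and its log2 fold change of 0.60 ± 0.18 had an edgeR adjusted p of 0.0918. Without the day 42 WT library Lysmd2 was called, at 0.79 and an adjusted p of 0.0251. With each other library left out in turn it was not called (edgeR adjusted p = 0.111 to 0.265). Lrrc1, a leucine-rich repeat gene, the ciliary gene Lca5, the synaptic vesicle gene Unc13c and the meiotic gene Mei4 had log2 fold changes of −0.14 to 0.32 and were not called. The 8 pseudogenes and other RNA genes ran from −1.04 to 0.42, with D430036J16Rik the 1 called.

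The days were also read one at a time, with 1 library per genotype and day and no test. At least 2-fold differences on the log2 CPM scale were seen for 4 members on day 33 (9.52%), 5 on day 36 (11.9%) and 8 on day 42 (19.0%), against 7.79%, 9.51% and 11.2% of genes whose mean reached 1 CPM. On day 33 the 4 members, Gsta4, Hmgcll1, Htr1b and D430036J16Rik, were all lower in KO. On day 36, Gsta4, Col12a1, Fam214a and Htr1b were lower and Myo5c was higher. On day 42, Gsta4, Hmgcll1, Col12a1, C920006O11Rik and D430036J16Rik were lower and Mapk6, Myo5c and Mei4 were higher in KO. The median difference of the members was −0.04, 0.02 and −0.01 on days 33, 36 and 42.

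**Figure D5:**
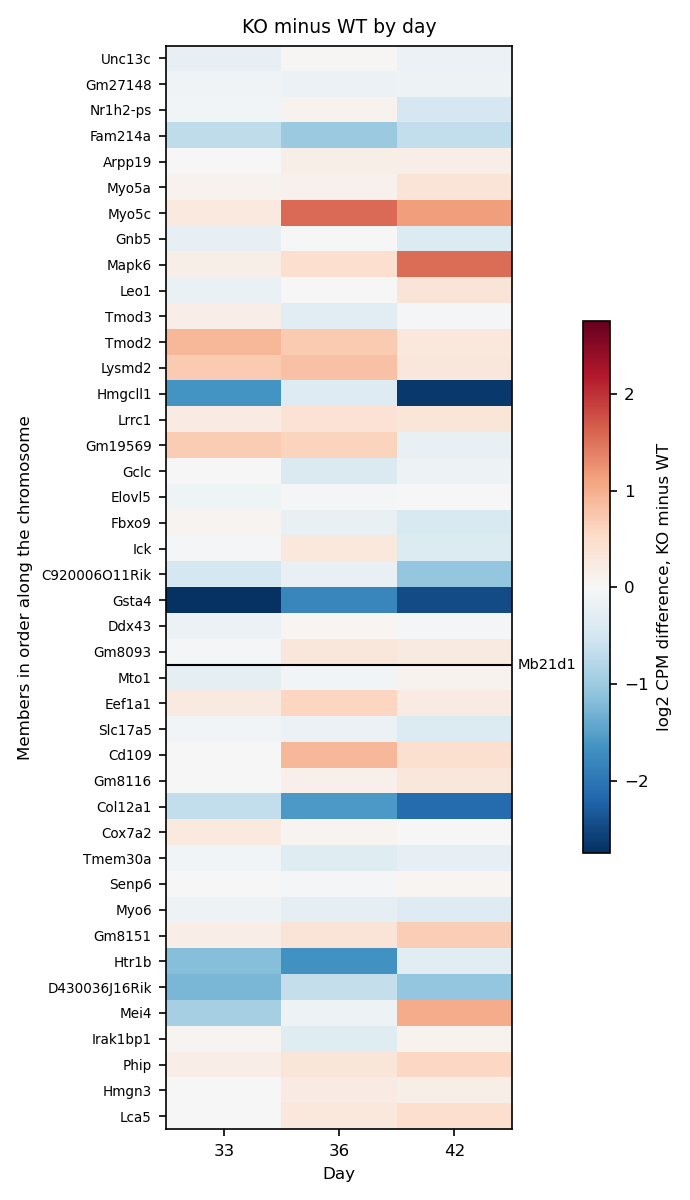
Difference in log2 CPM, KO minus WT (colour), on days 33, 36 and 42 (columns) for the 42 members in order along the chromosome (rows), with a line at the position of Mb21d1. Gsta4 is blue on all 3 days, from −1.80 to −2.71, Col12a1 darkens from −0.67 on day 33 to −2.12 on day 42, and the rows beside the line are pale.

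Between day 33 and day 42, 1 member in KO (2.38%) and 1 in WT (2.38%) differed at least 2-fold, against 6.33% of genes whose mean reached 1 CPM in KO and 5.97% in WT. In KO this was Mei4, which stood 1.53 higher on the log2 scale on day 42, and in WT it was Tmod2, which stood 1.16 higher. The median change of the members was 0.05 in KO and −0.07 in WT, and no test is possible with 1 library per genotype and day.

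The other 98 genes of the interval were below the mean of 1 CPM. Of these, 46 had no count after rounding, 44 had counts but too few for the test, and 8 were tested, with Tinag the 1 called. Over all genes tested 8.72% were called, and 1 of 8 is no result about these genes. Tinag, which encodes a basement membrane protein and starts 1.479 Mb before Mb21d1, was named after its values were seen. It had 0, 1 and 3 counts in KO, against 23, 27 and 33 counts in WT, with a log2 fold change of −3.99 ± 0.64 and an edgeR adjusted p of 0.0191. Tinag passed the filter on low counts only through WT, where it is high, so its call carries that selection. Bmp5, a growth factor gene, had 12, 3 and 1 counts in KO, against 25, 12 and 93 in WT, and an adjusted p of 0.173. Just below the level was Wdr72, at a mean of 0.879 CPM, and just above it D430036J16Rik, at 1.11 CPM.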

How the data were processed

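The deposited tables hold estimated counts for genes and transcripts, per the file headers, which are not whole numbers and carry no normalization, and RPKM for genes, per the file headers; the deposited RPKM values set levels between genes. Another 24 per-sample columns, of transcript values, went unused. Per the submitters' processing notes, mm10, Bowtie2 2.2.1 and limma 3.18.13 were used, with no role given. The sources used here do not give the counting program, the annotation release or the strand setting, so reads of near-identical or overlapping genes may have been split.

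The 4 columns of a group were compared over genes with at least 80 counts: chi-square per degree of freedom averaged 0.832 to 0.843, against 18.3 to 40.8 between groups, so they were summed to 6 libraries and rounded. CPM use the library total times its TMM factor (0.927 to 1.083). KO was compared with WT over all genes with edgeR 4.0.16 in R 4.3.3 (filterByExpr, quasi-likelihood test with robust dispersion, genotype the only term, Benjamini-Hochberg adjustment, threshold 0.05), tested first on simulated data. Log2 CPM of single libraries have a prior count of 2, which understates the change of low genes. Libraries of the same day deviated together (correlations of 0.187, 0.293 and 0.283 across genes), so the fit with days as blocks is given where it changes a call.

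Coordinates, exon overlaps and shared 50-base stretches were taken from GENCODE vM21 (GRCm38, that is mm10) by gene ID, because starts in the deposited table lie 2 below GENCODE for most IDs; promoter windows are RefSeq's (GRCm38.p6), found for 29 of 42 members. Members and lists were chosen with earlier results of these data known. Roles were grouped after values were seen. Named genes are Mb21d1, members called, the 5 nearest on each side, the 5 highest, the 5 largest fold changes each way and list genes called; a few more members are named for their group.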

Additional observations from a re-analysis of the deposited data

Results flagged for a closer look

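In 4 members the change from day 33 to day 42 had opposite signs in KO and WT and differed by at least 1 on the log2 scale, with 1 library per genotype and day, and the difference was not tested. Mei4 had changes of 1.53 in KO and −0.40 in WT, a difference of 1.94. Mapk6 had 0.44 in KO and −0.94 in WT, a difference of 1.38. Col12a1 had −0.84 in KO and 0.61 in WT, a difference of −1.45. Hmgcll1 had −0.49 in KO and 0.51 in WT, a difference of −1.01. Opposite signs were found for 21 of the 42 members.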

How the results depend on the processing

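The 4 members called became 2 with day as replicate block, 8 with DESeq2 (2 of them higher in KO, where 15.6% of genes with an adjusted p were called), 1 without day 33, 0 without day 36 (edgeR; 6 had an unadjusted p below 0.05, and 3 of all genes were called) and 28 with the 24 columns as separate samples, with or without column number as replicate block (64.4 to 65.5% of genes called). Leaving out 1 library gave 1 to 6, beside 0.136% to 10.2% of all genes, and leaving out 1 column gave 4, beside 8.41% to 8.75%. The count was 1 of 15 genes within 1 Mb of Mb21d1 (6.67%), 2 of 21 within 2.5 Mb (9.52%) and 11 of 97 within 10 Mb (11.34%). Of all genes whose mean reached 1 CPM, 8.95% were called. The median of −0.05 ranged from −0.049 to 0.040 when 1 library or column was left out and was −0.001 without day 33 and 0.050 without day 36. The 7 calls among 34 glutathione genes tested became 0 to 9 without 1 library or column, 3 without day 33, 0 without day 36, 2 without day 42 and 25 of 30 tested with 24 columns. The 2 calls among 19 collagen genes became 0 to 3 without 1 library or column, 1 without day 33, 0 without day 36, 1 without day 42, 12 of 16 tested with 24 columns and 5 with DESeq2. The share of all genes called moved in the same fits, to 2.47% without day 33, 0.0171% without day 36 and 3.07% without day 42. Mb21d1 ranged from −5.89 to −4.63 without 1 library and was not called without the day 42 KO library (−5.10), without day 36 (−4.70) or without day 42 (−5.04). Ranges, single-day and over-day counts kept within 1.5 times. For members named one by one and the distance classes, direction did not reverse in any called value. Of these values, 425 stayed the same, 28 lost a call, 38 became called and 34 moved by more than the SE or, for counts, 1.5 times. Most of the 38 came from the fits that take the 24 columns as separate samples, although the columns of a group were counted here as 1 library. From near to far, the distance classes ran from 0 to 10, 0 to 4 and 0 to 14 called, with the upper ends from the 24 columns. The causes were not tested. Depth limits members near 1 CPM.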
